A study of Homo sapiens with 36 samples.

Results

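Late PMD-Sen, the stretch between D6 or D8 and D16 after plasma membrane damage, was followed in the mature miRNAs of 6 small RNA libraries. WI-38 cells, normal fibroblasts of human lung, were treated with the detergent SDS, which injures the plasma membrane, washed, and kept in culture. The 2 libraries of SDS-treated cells at D16 were compared with the 4 libraries of SDS-treated cells at D6 and D8, chosen by their condition label. They are 6 of 36 libraries of 18 conditions with 2 replicates each, which also hold proliferating untreated cells (Ctrl), earlier days after SDS, cells treated with doxorubicin (DXR, a DNA-damaging drug; DDR-Sen) and cells in replicative senescence. No gene was altered in any group, and every group is the same cell strain, so the results describe this strain alone. The labels call the replicates biological, but nothing used here says that they were separate cultures, and p-values measure only the spread between these libraries. The table lists 1508 miRNAs, of which 995 had at least 1 count in the 6 libraries and 360 passed the low-count filter over the 18 conditions. The filter used all conditions, so some of the 360 are near 0 in these 6 libraries.

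One library stands apart in depth. D16 replicate 1 held 1933442 counts and D16 replicate 2 held 440285, a ratio of 4.39, while the D6 and D8 libraries held 325894 to 557527. The log2 levels of the tested miRNAs correlated across miRNAs with r of 0.983 between the D6 replicates, 0.984 at D8 and 0.987 at D16. Leaving out replicate 1 of D16 removed every call of differential expression (DE, defined below), and leaving out replicate 2 kept most of them. Levels are in CPM, counts scaled to a common library total after TMM. Log2 fold changes are D16 minus the mean of D6 and D8, so a positive value is higher at D16. A miRNA is said to have risen or fallen where edgeR's quasi-likelihood p was below 0.05 before adjustment, and to be upregulated or downregulated (DE) where the change also passed 2-fold, the thresholds of the study. Adjusted p is Benjamini-Hochberg over the 360. In these bulk libraries fewer cells with a miRNA and less of it per cell cannot be told apart.

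A miRNA is cut from a hairpin precursor as a duplex, and either arm (5p or 3p) can be loaded into an Argonaute protein. Bases 2 to 8 of the loaded strand, the seed, pair with target mRNAs, so miRNAs with the same seed share many predicted targets. Neighbouring hairpins are often transcribed together as a cluster. In senescent fibroblasts miRNAs are known as brakes on cell-cycle genes and on inflammatory signalling; the miR-146 family, for example, targets the adaptor proteins IRAK1 and TRAF6 of toll-like and interleukin-1 receptor signalling. Mature sequences from RefSeq (GRCh38.p14) were matched to 329 of the 360 tested miRNAs. Those that carry the results are printed 5′ to 3′ with the seed in capitals.

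The miR-146 pair is shown because both members carry the seed GAGAACU and had changes of opposite sign. The last line is the other arm of the miR-146b hairpin, with a different seed.
miR-146b-5p: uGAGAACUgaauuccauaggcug
miR-146a-5p: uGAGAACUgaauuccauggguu
miR-146b-3p: gCCCUGUGgacucaguucuggu

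The 3 miR-29 members share the seed AGCACCA and all rose.
miR-29a-3p: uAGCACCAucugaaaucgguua
miR-29b-3p: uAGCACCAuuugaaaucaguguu
miR-29c-3p: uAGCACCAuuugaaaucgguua

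The hairpins of the miR-424 cluster and the miR-143 cluster are shown because most arms of each cluster rose. miR-424-5p has the seed AGCAGCA of miR-15a and miR-16, and miR-503-5p differs from it in the last seed base.
miR-424-5p: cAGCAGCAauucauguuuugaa
miR-16-5p: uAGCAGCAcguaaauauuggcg
miR-503-5p: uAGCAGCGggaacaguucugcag
miR-450a-5p: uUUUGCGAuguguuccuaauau
miR-450a-2-3p: aUUGGGGAcauuuugcauucau
miR-143-3p: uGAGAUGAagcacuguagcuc
miR-145-5p: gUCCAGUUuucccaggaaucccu
miR-145-3p: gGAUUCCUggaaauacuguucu

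The following were lower at D16, the first 5 being those called DE.
miR-4485-3p: uAACGGCCgcgguacccuaa
miR-1246: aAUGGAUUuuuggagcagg
miR-23a-5p: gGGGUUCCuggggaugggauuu
miR-365b-5p: aGGGACUUucaggggcagcugu
miR-3177-3p: uGCACGGCacuggggacacgu
miR-31-5p: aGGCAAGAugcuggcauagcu

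Across the 360 miRNAs, D16 differed from D6 and D8 by a small number of changes. With all 6 libraries most of them were upward, an excess that was absent without D16 replicate 1. In all, 32 miRNAs rose (8.89% of those tested) and 8 fell (2.22%). Of these, 10 were upregulated (2.78%) and 5 downregulated (1.39%). Only miR-146b-5p passed the adjusted threshold (0.278%). Across the alternatives 0 to 3 miRNAs passed it, except for 34 in a fit of these 6 libraries with the replicate numbers as a block, numbers that are not known to mark pairs. The median log2 fold change over all 360 was 0.040 and the median absolute change 0.27. Both D16 libraries lay above all 4 D6 and D8 libraries for 41 miRNAs (11.4%) and below all 4 for 30 (8.33%). The split of the DE calls depends on the scaling. With DESeq2's size factors it was 6 upregulated and 7 downregulated, and with total counts 5 and 9, where the median of all miRNAs moved to -0.11, a shift of -0.15. Without D16 replicate 1 the fit gave 0 upregulated and 2 downregulated miRNAs and none at the adjusted threshold, with 8 at p below 0.05. Without D16 replicate 2 it gave 19 and 6, and 1 at the adjusted threshold. In both cases the lone D16 library is assumed to vary like the other groups. No DE miRNA of the full fit kept its call without replicate 1, so the downregulated miRNAs of that fit are others. Of the 32 miRNAs that rose, 31 remained positive without replicate 1, but only miR-146b-5p, miR-181a-5p and miR-431-5p still had p below 0.05. All 8 that fell remained negative, with p below 0.05 for miR-31-5p alone. Leaving out D6 replicate 1 gave 23 DE miRNAs, and leaving out D6 replicate 2 or D8 replicate 2 gave 9 each.

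**Figure D1:**
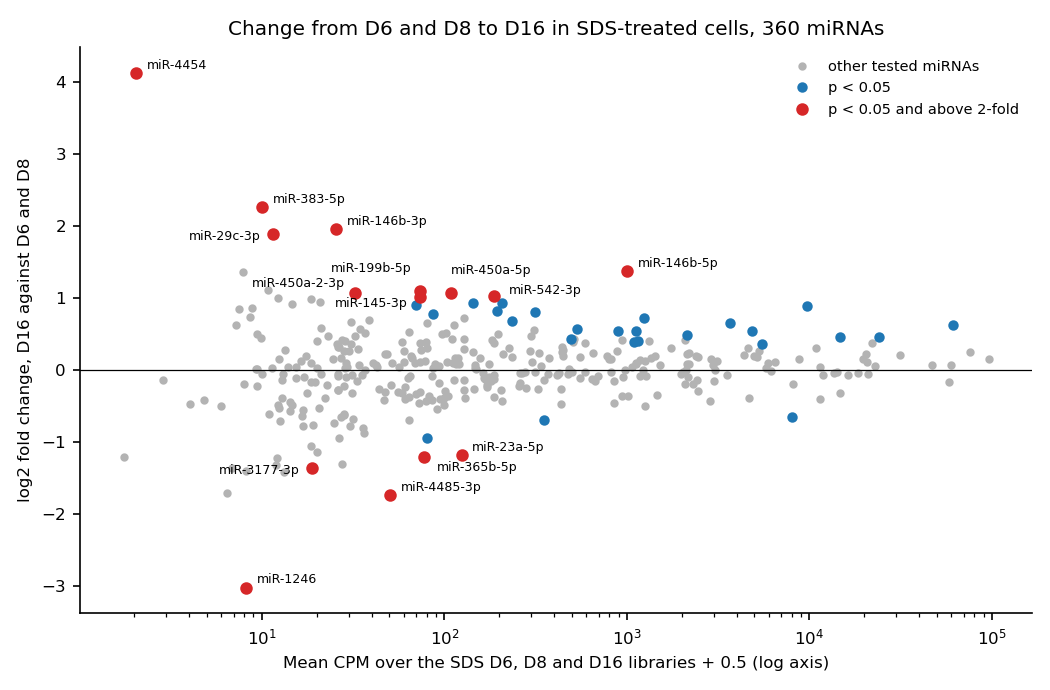
Fitted log2 fold change of D16 against D6 and D8 (vertical axis) against the mean CPM of the 6 SDS libraries plus 0.5 (horizontal log axis) for 360 miRNAs, each a point. Red points are the 15 DE miRNAs, blue points the others with p below 0.05. Of the named red points only miR-146b-5p passed adjustment, and the fitted values of miR-4454 and miR-1246 rest on few counts.

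**Figure D2:**
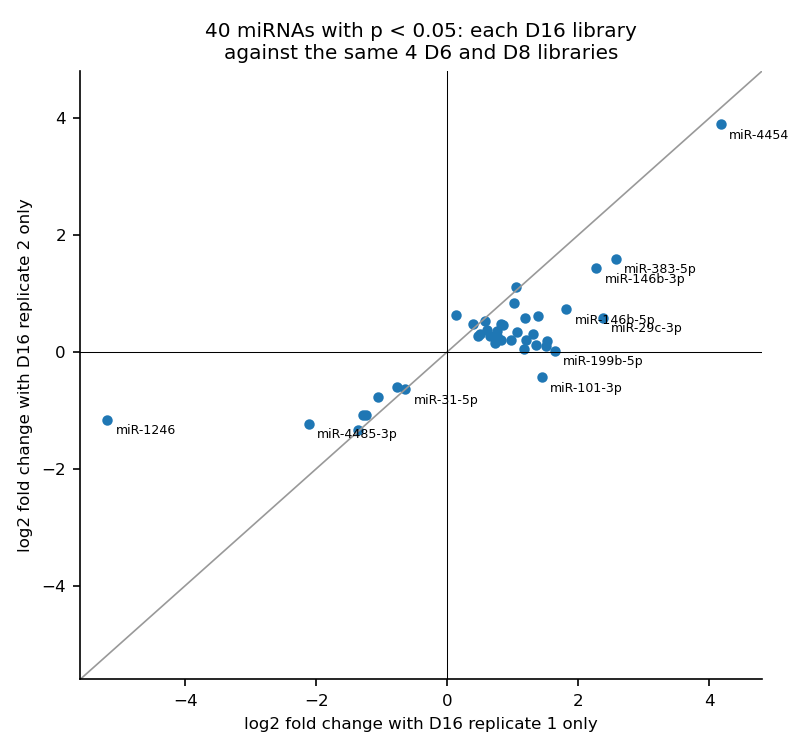
Log2 fold change of the 40 miRNAs with p below 0.05 when the D16 group is replicate 1 alone (horizontal) or replicate 2 alone (vertical), against the same 4 D6 and D8 libraries; the diagonal marks equal change. Most points above 0 lie below the diagonal, and miR-101-3p changes sign, from 1.44 with replicate 1 to -0.43 with replicate 2.

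miR-146b-5p had the lowest p of the 360. It measured 613 and 453 CPM at D6, 1008 and 574 CPM at D8, then 2297 and 1084 CPM at D16. Both D16 libraries lay above every D6 and D8 library, although replicate 2 exceeded D8 replicate 1 by little. The mean was 662 ± 241 CPM (SD, n = 4) at D6 and D8 and 1691 ± 858 CPM (SD, n = 2) at D16, a 2.61-fold rise (log2 fold change 1.38, SE 0.24, adjusted p = 0.00105). Without D16 replicate 1 the log2 change was 0.73, still past unadjusted p below 0.05 but short of 2-fold and with an adjusted p of 0.995. In Ctrl it measured 755 and 899.6 CPM, so the D6 libraries sat below Ctrl and both D16 libraries above it. The hairpin gene lies at chr10:102436512-102436584, plus strand (GRCh38), with no protein-coding or lncRNA gene annotated over it on that strand.

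The other arm of the hairpin, miR-146b-3p, moved with it from a much lower level. It measured 13.1 and 5.52 CPM at D6, 18.9 and 14.6 CPM at D8, then 63.6 and 35.2 CPM at D16, with both D16 libraries above all 4 others (log2 fold change 1.96, SE 0.50, adjusted p = 0.0889). In pooled counts, 133 at D16 stood against 26 at D6 and D8, a ratio of 4.21 after scaling (95% interval 2.75 to 6.68, counting error only). Without D16 replicate 1 its change was 1.43.

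miR-146a-5p, which has the same seed as miR-146b-5p and comes from another chromosome (chr5:160485352-160485450, plus strand, in an exon of the lncRNA MIR3142HG), went the other way without passing the test. It measured 31.8 and 22.1 CPM at D6, 31 and 41.4 CPM at D8, then 19 and 11 CPM at D16 (log2 fold change -0.94, SE 0.48, adjusted p = 0.49). Both D16 libraries lay below all 4 others. Since miR-146b-5p is far more abundant, the CPM summed over the seed GAGAACU were 645 and 475 in the D6 libraries, 1039 and 616 in the D8 libraries, then 2316 and 1095 at D16, a ratio of means of 2.46. The remaining members of the inflammation-linked list were miR-21, which rose in both arms, and miR-155-5p, at 2837 and 3341 CPM at D6, 3250.1 and 3083 CPM at D8, then 2424 and 2231 CPM at D16 (log2 fold change -0.43, adjusted p = 0.494). miR-155-5p was already far below its Ctrl levels of 8817 and 9893 CPM at D6.

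**Figure D3:**
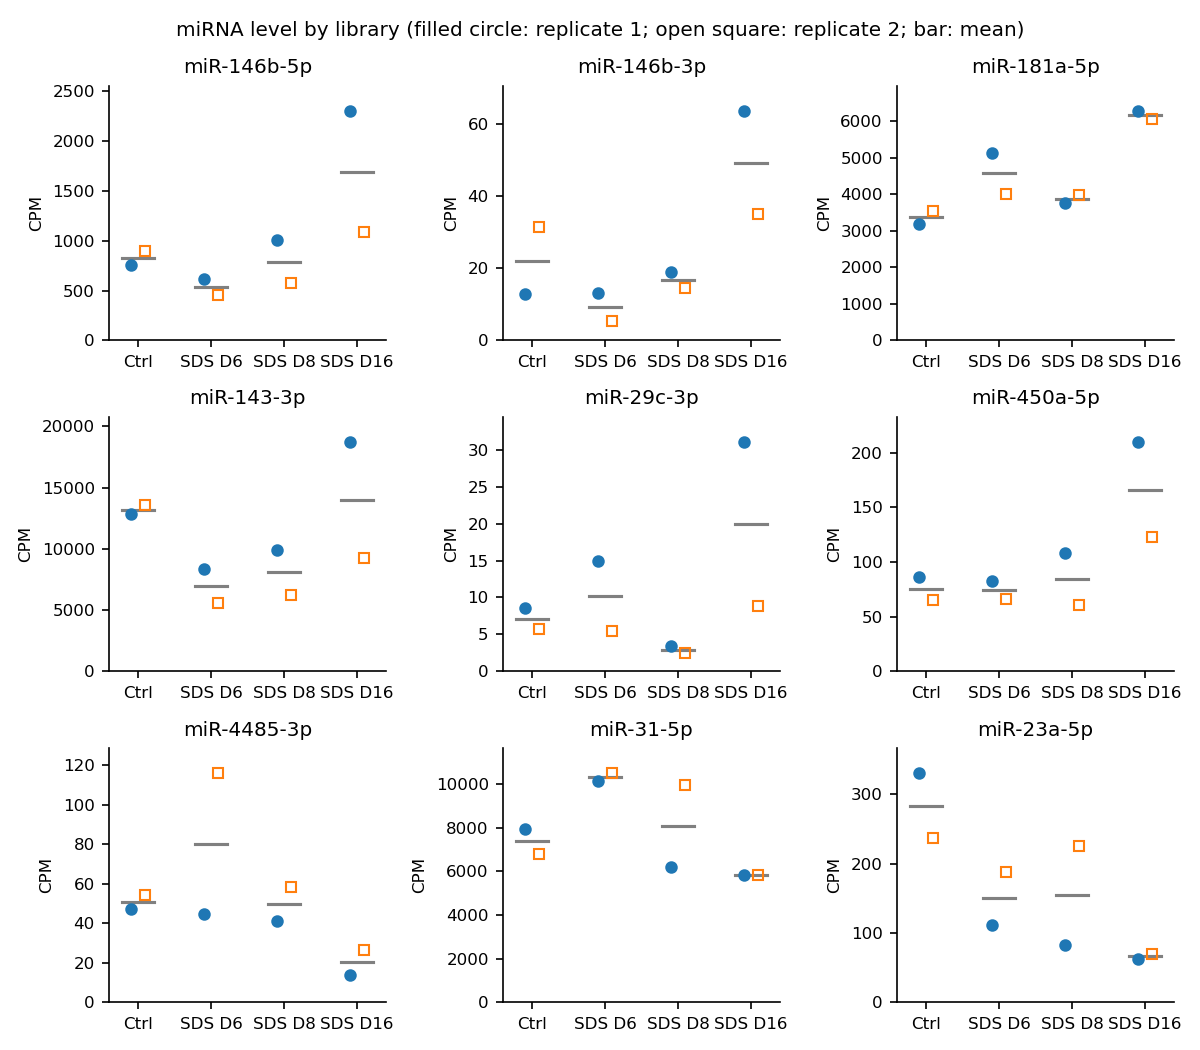
CPM (vertical axes, each starting at 0) of 9 miRNAs in Ctrl and in SDS-treated cells at D6, D8 and D16; filled circles are replicate 1, open squares replicate 2 and grey bars the mean of the 2. In miR-146b-5p, miR-146b-3p, miR-181a-5p and miR-450a-5p both D16 libraries exceed all D6 and D8 libraries, in miR-4485-3p, miR-31-5p and miR-23a-5p both lie below them, and in miR-143-3p and miR-29c-3p replicate 2 of D16 lies among them.

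The miR-424 cluster on the X chromosome (miR-424, miR-503, miR-542 and miR-450) includes miRNAs known to restrain cyclins and other cell-cycle genes. All 7 of its tested members had positive changes, and 5 of them rose, 3 past 2-fold, against 8.89% of all tested miRNAs that rose. The median change was 0.81. miR-503-5p (chrX:134546328-134546398, minus strand, in an exon of the lncRNA MIR503HG) measured 1891 and 1786 CPM at D6, 2175 and 1672 CPM at D8, then 2858 and 2451 CPM at D16, with both D16 libraries above the other 4 (log2 fold change 0.50, SE 0.16, adjusted p = 0.237, and 0.38 without D16 replicate 1). miR-424-5p (chrX:134546614-134546711, minus strand) measured 264 and 185 CPM at D6, 291 and 265 CPM at D8, then 578 and 288 CPM at D16, where D16 replicate 2 lies just below D8 replicate 1 (adjusted p = 0.376). The rise of miR-424-5p rests on replicate 1: its log2 change was 0.81 with all libraries and 0.20 without that one. miR-450a-5p (chrX:134540341-134540431, minus strand for MIR450A1) was upregulated from 82.2 and 66.3 CPM at D6 and 108 and 60.8 CPM at D8 to 209 and 123 CPM at D16 (log2 fold change 1.08, SE 0.43, adjusted p = 0.358). The change was 0.62 without D16 replicate 1 and 0.86 without D8 replicate 2, in neither case past p below 0.05, and with DESeq2's size factors, total counts or the GC correction it fell short of 2-fold.

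The 3p arm miR-450a-2-3p was upregulated too, at 33.6 and 33.1 CPM at D6, 17.2 and 12.2 CPM at D8, then 46.7 and 48.4 CPM at D16 (log2 fold change 1.08, adjusted p = 0.437). Its D16 replicates differ by under 2 CPM, and the change without replicate 1 was 1.10, but this call is weak. It was made in 6 of 19 alternatives and was lost when any of the 6 libraries was left out, and the change was 0.50 against D6 alone and 1.65 against D8 alone. miR-542-3p measured 153 and 91.1 CPM at D6, 220.2 and 94.9 CPM at D8, then 405 and 160.5 CPM at D16, upregulated on the mean (1.04, adjusted p = 0.404) with D16 replicate 2 inside the range of D6 and D8. Without replicate 1 its change was 0.19. The members that did not pass were miR-450b-5p (0.51, adjusted p = 0.675), with both D16 libraries above the other 4, and miR-424-3p (0.087, adjusted p = 0.936). The cluster's summed level was 3174 to 4232 CPM at D6 and D8 and 5568 and 4451 CPM at D16. Its median change without D16 replicate 1 was 0.38, still with 7 of 7 positive and 0 past p below 0.05.

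miRNAs typical of fibroblasts and other mesenchymal cells rose in number: 7 of 11 tested rose (8.89% over all tested), 2 past 2-fold (2.78% over all), 0 fell, and the median change was 0.64. The 7 are arms of miR-143, miR-145, miR-21 and miR-199, which are counted again below. The tested arms of miR-214 were negative, and miR-10b-5p, with 2 to 8 counts per library, was not tested. Without D16 replicate 1 the median was 0.19 and 0 of the 11 rose, while without replicate 2 it was 0.85 and 8 rose. The list's summed level was 52119 to 85713 CPM at D6 and D8, and 132368 and 76820 CPM in the D16 replicates, so that replicate 2 lies within the earlier range. Most of this sum is miR-21-5p. The part of the depth of replicate 1 in this was not tested, beyond a fit on counts thinned to equal totals that gave 5 upregulated and 5 downregulated miRNAs over the whole table.

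The cluster of miR-143 and miR-145, known from smooth muscle and activated fibroblasts, lies in the lncRNA CARMN on chromosome 5. All 4 tested arms were positive and 3 rose, against 8.89% of all tested, with a median of 0.91. Without D16 replicate 1 the median was 0.29 and 0 of the 4 had p below 0.05. miR-143-3p (chr5:149428918-149429023, plus strand) measured 8353 and 5549 CPM at D6, 9943 and 6257 CPM at D8, then 18681 and 9263 CPM at D16 (log2 fold change 0.90, SE 0.31, adjusted p = 0.285). Its replicate 2 at D16 lies below D8 replicate 1, and in Ctrl it measured 12816 and 13598 CPM, so the level at D6 and D8 was below Ctrl and that at D16 spanned it. miR-145-5p (chr5:149430646-149430733, plus strand) measured 936 and 776 CPM at D6, 609 and 776 CPM at D8, then 1303 and 932 CPM at D16 (log2 fold change 0.54, adjusted p = 0.285). miR-145-3p was upregulated on the mean (1.02, adjusted p = 0.376), from 80.4 and 44.2 CPM at D6 and 44.7 and 53.5 CPM at D8 to 159 and 59.3 CPM at D16. For this arm too the groups overlap, and its change was 0.092 without replicate 1.

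miR-21, among the most abundant fibroblast miRNAs and linked to fibrosis, rose in both arms. miR-21-5p (chr17:59841266-59841337, plus strand, in an exon of VMP1) measured 56025 and 37655 CPM at D6, 67162 and 46405 CPM at D8, then 101298 and 58989 CPM at D16 (log2 fold change 0.64, SE 0.29, adjusted p = 0.404), and 0.19 was left without D16 replicate 1. miR-21-3p had a similar change (0.68, adjusted p = 0.407) at 354 and 270.4 CPM at D16, with D6 replicate 1 at 273 CPM just above the lower of these. In the list of miR-199 and miR-214, whose members are marks of mesenchymal cells, 3 of 5 tested were positive and 2 rose (8.89% over all tested, and 0 of the 5 without D16 replicate 1). miR-199a-5p measured 1089.6 and 917 CPM at D6, 945 and 944 CPM at D8, then 1711 and 1119 CPM at D16 (log2 fold change 0.54, adjusted p = 0.376), with both D16 libraries above the other 4. miR-199b-5p was upregulated on the mean (1.11, adjusted p = 0.376) from 56.1 and 41.4 CPM at D6 and 82.6 and 34.1 CPM at D8 to 169.5 and 55 CPM at D16. The whole of that change is in replicate 1, and 0.02 remained without it. The arms miR-214-3p (-0.29) and miR-214-5p (-0.13) went the other way without passing.

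Markers of other cell types were far less abundant. Of the 7 blood cell markers in the table only miR-486-5p passed the filter, at 271 and 389 CPM at D6, 308 and 411 CPM at D8, then 227 and 356 CPM at D16, and miR-223-3p and miR-144-5p, of myeloid and red blood cells, had 0 counts in all 6 libraries. The epithelial list summed to 17.0 to 60.7 CPM at D6 and D8 and 31.5 and 43.96 CPM at D16, with miR-141-3p at 0. The 2 arms of the endothelial miR-126 summed to 67.3 to 114 and to 141 and 132 CPM. The hepatocyte miR-122-5p measured 33.6 and 30.4 CPM at D6, 17.2 and 56 CPM at D8, then 15.8 and 8.79 CPM at D16 (log2 fold change -1.30, adjusted p = 0.562). The muscle list summed to at most 24.1 CPM, with miR-206 at 0, and the neural list to at most 12.2 CPM, with miR-124-3p at 0.

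The miR-29 family, which targets collagens and other matrix genes, rose in its 3 tested 3p members, 3 of the 5 arms tested against 8.89% over all, and in 0 of the 5 without D16 replicate 1. miR-29a-3p (chr7:130876747-130876810, minus strand, in an exon of LINC-PINT) measured 15039.8 and 11372 CPM at D6, 12412 and 13305 CPM at D8, then 21579.8 and 14429 CPM at D16 (log2 fold change 0.47, adjusted p = 0.404). miR-29b-3p rose more on the mean (0.91, adjusted p = 0.404), at 140.2 and 59.3 CPM at D16. miR-29c-3p (chr1:207801852-207801939, minus strand, in an exon of MIR29B2CHG) was upregulated at a level of few counts: 15 and 5.52 CPM at D6, 3.44 and 2.43 CPM at D8, then 31 and 8.79 CPM at D16 (1.89, adjusted p = 0.291). Replicate 2 of D16 overlaps D6 and D8 in miR-29b-3p and miR-29c-3p, and exceeds only 3 of the 4 in miR-29a-3p. The CPM summed over the seed AGCACCA were 15111 and 11422 in the D6 libraries, 12469 and 13373 in the D8 libraries, then 21751 and 14497 at D16, a ratio of means of 1.38. Without replicate 1 of D16 the changes were 0.15 for miR-29a-3p, 0.12 for miR-29b-3p and 0.58 for miR-29c-3p. The 5p arms miR-29b-1-5p (-0.42) and miR-29a-5p (0.026) did not pass the test.

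Some abundant miRNAs changed by less than 2-fold but with small spread. miR-181a-5p (chr1:198859044-198859153, minus strand and chr9:124692442-124692551, plus strand, both in introns of lncRNA genes) measured 5136 and 4012 CPM at D6, 3758 and 3986 CPM at D8, then 6266 and 6056 CPM at D16. Both D16 libraries lay above all 4 others and close to each other, and the change was 0.55 (SE 0.15, adjusted p = 0.11). It was nearly the same without D16 replicate 1 (0.52) and without replicate 2 (0.57). Of the other 5 tested arms of the miR-181 family, regulators of T-cell receptor and other signalling, none passed, though all were positive.

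miR-26a-5p, which restrains the methyltransferase EZH2, measured 20140.2 and 17863 CPM at D6, 25768 and 21567 CPM at D8, then 33244 and 25446 CPM at D16 (log2 fold change 0.47, adjusted p = 0.285), and miR-101-3p, another regulator of EZH2, 187 and 110.4 CPM at D6, 221.9 and 105 CPM at D8, then 428 and 117 CPM at D16 (0.83, adjusted p = 0.416). In both, D16 replicate 2 lies among the earlier libraries, and miR-101-3p turned to -0.43 without replicate 1. miR-27b-3p (chr9:95085445-95085541, plus strand, in an intron of AOPEP) measured 2837 and 2634 CPM at D6, 3771 and 3062 CPM at D8, then 5389 and 4242 CPM at D16 (0.66, adjusted p = 0.285), with the groups apart, and 0.47 without D16 replicate 1. Its neighbour miR-23b-3p rose less (0.37, adjusted p = 0.416), with D6 and D8 between 4936 and 5043 CPM and D16 at 6902 and 5999 CPM. The paralogous miR-27a-3p, with the seed UCACAGU of miR-27b-3p, had -0.025 (adjusted p = 0.976).

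In the miR-30 family, regulators of autophagy and epithelial state, 7 of 8 tested were positive and 2 rose (8.89% over all tested), with a median of 0.30. None of the 8 rose without D16 replicate 1. miR-30e-5p measured 979 and 820.0 CPM at D6, 1516 and 786 CPM at D8, then 2295 and 1053 CPM at D16 (0.72, adjusted p = 0.404, and 0.046 without D16 replicate 1). miR-30b-5p measured 114 and 55.2 CPM at D6, 48.2 and 65.7 CPM at D8, then 147 and 87.9 CPM at D16 (0.78, adjusted p = 0.437, and 0.33 without it). miR-30a-5p, the most abundant, was at 18454 and 14657 CPM at D6, 24567 and 22458 CPM at D8, then 26193 and 25151 CPM at D16, above all earlier libraries in both replicates but short of the threshold (adjusted p = 0.494), and miR-30d-5p (0.23) and miR-30c-5p (0.21) did not pass.

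Among miRNAs outside these groups, miR-106b-5p, a member of the miR-17 seed family, measured 153 and 82.8 CPM at D6, 114 and 92.5 CPM at D8, then 253 and 167 CPM at D16 and miR-218-5p, encoded in introns of SLIT2 and SLIT3, 166 and 93.9 CPM at D6, 248 and 124 CPM at D8, then 319.5 and 281 CPM at D16. Both were above all earlier libraries at D16, with changes just under 2-fold (0.93, adjusted p = 0.305, and 0.94, adjusted p = 0.314). These were 0.58 and 0.84 without D16 replicate 1. miR-152-3p (0.40, adjusted p = 0.404) and miR-148b-3p (0.58, adjusted p = 0.407), which share the seed CAGUGCA, both rose, and their sum had a ratio of means of 1.37. miR-140-3p (0.44, adjusted p = 0.437) and miR-431-5p (0.39, adjusted p = 0.376) also rose. miR-431-5p had a larger change in D16 replicate 2 than in replicate 1, at 0.63 without replicate 1 against 0.13 without replicate 2.

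A pair of upregulated entries rests on few counts. miR-383-5p had 54 counts at D16 and 8 at D6 and D8, a scaled ratio of 5.56 (95% interval 2.63 to 13.5, counting error only), at 1.87 and 11 CPM at D6, 5.16 and 0 CPM at D8, then 26.1 and 13.2 CPM at D16 (log2 fold change 2.26, SE 0.79, adjusted p = 0.285). Its change was 1.60 without D16 replicate 1, no longer past p below 0.05. miR-4454, an entry whose sequence resembles the end of a tRNA, had 0 counts in the 4 D6 and D8 libraries and 11 at D16, at 4.79 CPM pooled. Its pooled D16 level was 3.02 times a floor of 3 counts over the D6 and D8 group, 1.59 CPM. This ratio leaves out the counting error of the 11 counts, so it is no lower bound. The call of miR-4454 was lost without D16 replicate 1.

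Lower at D16 were 8 miRNAs, 5 of them past 2-fold. The groups did not overlap in these 5, which were picked for their fall in the same libraries. Over all tested miRNAs, both D16 libraries lay below all 4 others in 8.33%. The calls of these 5 were lost without D16 replicate 1. miR-4485-3p (chr11:10508270-10508326, minus strand) measured 44.9 and 116 CPM at D6, 41.3 and 58.4 CPM at D8, then 14.1 and 26.4 CPM at D16, 3.32-fold lower at D16 (log2 fold change -1.73, SE 0.49, adjusted p = 0.112). The D6 replicates differ by more than a factor of 2, and without D16 replicate 1 the change was -1.23. miR-23a-5p (chr19:13836587-13836659, minus strand, in an exon of MIR23AHG), the minor arm of its hairpin, measured 112 and 188 CPM at D6, 82.6 and 226 CPM at D8, then 63 and 70.3 CPM at D16 (-1.18, adjusted p = 0.305). Its D16 libraries are close to each other and just under D8 replicate 1. The call was lost without D16 replicate 1 (-1.09), D6 replicate 2 (-0.98) or D8 replicate 2 (-0.80).

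miR-365b-5p (chr17:31575411-31575521, plus strand, in an exon of MIR365BHG) measured 69.2 and 141 CPM at D6, 53.3 and 117 CPM at D8, then 38 and 44 CPM at D16 (-1.20, adjusted p = 0.376). miR-3177-3p (chr16:1734985-1735066, plus strand, in an intron of MAPK8IP3) had 20 counts at D16 and 42 at D6 and D8, at 18.7 and 30.4 CPM at D6, 17.2 and 26.8 CPM at D8, then 8.69 and 8.79 CPM at D16 (-1.36, adjusted p = 0.404). Both kept almost the same change without D16 replicate 1, -1.07 and -1.34, but neither passed p below 0.05 in that fit, nor without D16 replicate 2, D6 replicate 2 or D8 replicate 2. miR-1246, an entry that shares sequence with the U2 small nuclear RNA, had 2 counts at D16 and 19 at D6 and D8, a scaled ratio of 0.0867 (95% interval 0.00979 to 0.359, counting error only). Replicate 1 of D16, the deepest library, had 0 counts of it and replicate 2 had 2, and without replicate 1, or with libraries thinned to equal totals, it missed p below 0.05.

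miR-31-5p and miR-337-3p fell by less than 2-fold. miR-31-5p (chr9:21512115-21512185, minus strand, in an intron of MIR31HG) measured 10143 and 10483 CPM at D6, 6216 and 9932 CPM at D8, then 5835 and 5840.4 CPM at D16 (log2 fold change -0.64, SE 0.22, adjusted p = 0.285). The D16 replicates are nearly equal, so the change was the same from either of them (-0.64 and -0.64). miR-337-3p (chr14:100874493-100874585, plus strand, in the 14q32 cluster) measured 428 and 400.3 CPM at D6, 359.6 and 423 CPM at D8, then 236 and 264 CPM at D16 (-0.69, adjusted p = 0.285). It had been higher than Ctrl, at 98.7 and 146 CPM, by D6 and stayed so at D16. miR-92b-5p fell (-0.94, adjusted p = 0.376), with D6 replicate 1 between the D16 libraries.

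Most groups of related miRNAs showed few or no changes. Of the 68 tested miRNAs of 14q32, a large imprinted cluster active in fibroblasts, 41 were positive, miR-431-5p rose and miR-337-3p fell, with a median of 0.088. Of the 13 tested arms from miR-17-92 and its paralogous clusters, drivers of proliferation, miR-106b-5p rose, 0 fell and 7 were negative (median -0.13, or -0.47 without D16 replicate 1 and 0.20 without replicate 2). miR-17-5p measured 226 and 237 CPM at D6, 169 and 180.1 CPM at D8, then 178 and 127 CPM at D16 (-0.37, adjusted p = 0.696), and had been lower than its Ctrl levels of 386 and 508 CPM since D6.

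No member passed p below 0.05 in let-7 and miR-98 (14 tested, 10 positive, median 0.12), miR-15 and miR-16 with miR-195 and miR-497 (5 tested, median 0.31), the p53-linked miR-34, miR-192, miR-194 and miR-215 (6 tested, 0.068), miR-221 and miR-222 (4 tested, 4 negative, -0.12), miR-99, miR-100 and miR-125 (9 tested, -0.02), the miR-532 cluster (9 tested, 7 negative, -0.23), miR-320 (3 tested, -0.18) and miR-10 and miR-196 (2 tested, 0.041). Without D16 replicate 1 the median turned to -0.36 in the miR-15 list, with 0 of 5 positive, to -0.86 in the p53-linked list, to 0.089 in the list of miR-99 and to -0.068 in that of miR-10. miR-34a-5p, a target of p53, was above all earlier libraries in both D16 replicates, at 533 and 411 CPM at D6, 483 and 411 CPM at D8, then 648 and 593 CPM at D16, without passing (adjusted p = 0.494). In the list of miR-130, miR-301, miR-148 and miR-152, 2 of 6 rose (8.89% over all tested). In that of miR-193 and miR-365, 1 of 6 fell (2.22% over all tested).

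**Figure D4:**
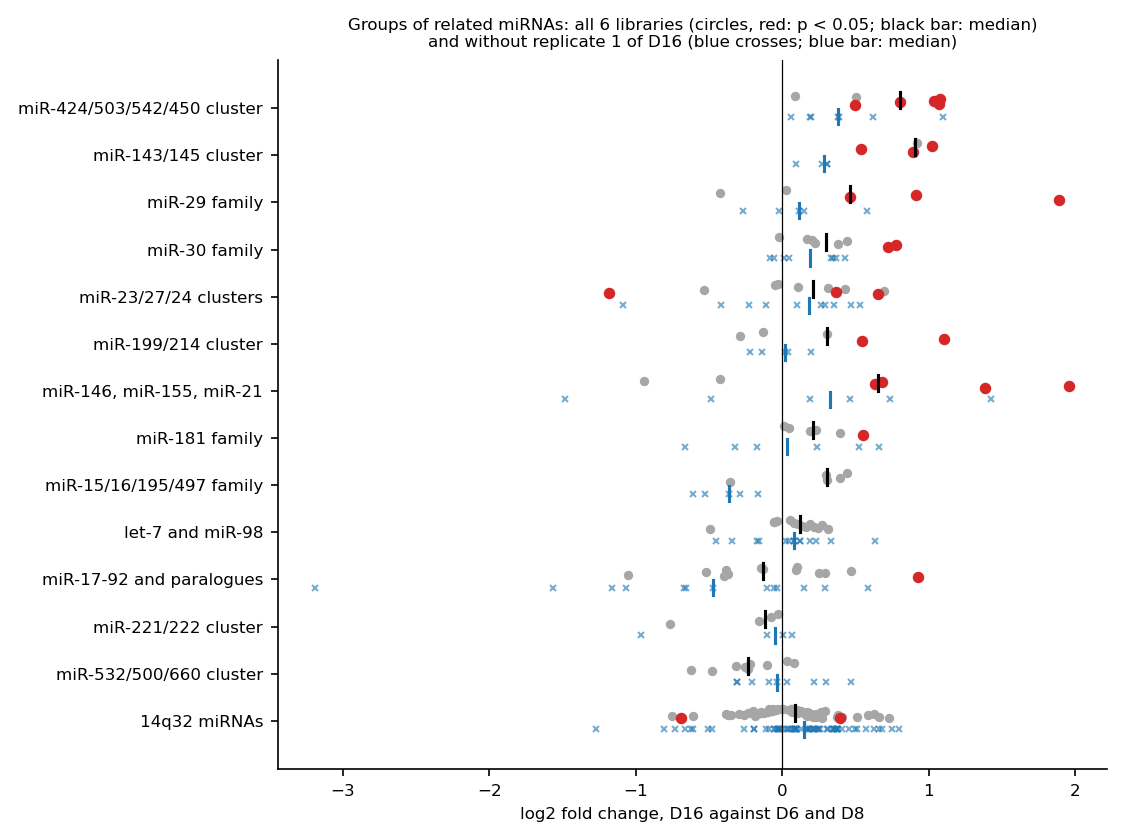
Log2 fold change of D16 against D6 and D8 (horizontal axis) for the tested members of 14 groups of related miRNAs, with all 6 libraries (circles, red where p was below 0.05; black bar, median) and without replicate 1 of D16 (blue crosses; blue bar, median). The medians of the miR-424 and miR-143 clusters stand at 0.81 and 0.91 with all libraries and at 0.38 and 0.29 without that replicate.

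The 6 most abundant miRNAs of these libraries included miR-21-5p, described above. The other 5 did not pass the test: let-7a-5p (0.17, SE 0.17), miR-100-5p (0.25, SE 0.14), miR-125b-5p (0.077, SE 0.11), miR-222-3p (-0.16, SE 0.14) and miR-10a-5p (0.069, SE 0.15). let-7a-5p, for instance, measured 86437 and 88750.0 CPM at D6, 105784 and 88690.3 CPM at D8, then 109149 and 97803 CPM at D16, a range in which the groups overlap.

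A list of 16 was drawn from the miRNAs that the study names, chosen there on these same samples. It leaves out others named there, among them miR-101-3p and miR-143-3p, given above. Of the 16, 12 were positive and 5 rose (miR-146b-5p, miR-27b-3p, miR-106b-5p, miR-30e-5p and miR-30b-5p), with a median of 0.30. Over all tested miRNAs 8.89% rose. The list mixes miRNAs that the study reports as higher and as lower in senescence. miR-106b-5p is one that it reports as lower in PMD-Sen, so its late rise has the other direction. Of the 16, 1 (miR-146b-5p) rose without D16 replicate 1. The others in addition to the miR-30 members, miR-17-5p, miR-155-5p and miR-486-5p already given were miR-126-3p (0.52), miR-335-5p (0.42), miR-664a-3p (-0.28), miR-1260b (0.10) and miR-625-3p (0.026), none of which passed. miR-664a-3p went from 21.5 and 28.6 CPM in Ctrl to 127 and 124 CPM at D6 and stayed at 107 and 119 CPM at D16.

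The 2 arms of a hairpin are cut from one precursor but counted from different reads. Of 86 hairpins with both arms tested, the 2 arms had the same sign in 44 (51.2%). Of the 16 with either arm at p below 0.05, the sign was shared in 16, and both arms passed in miR-145, miR-146b and miR-21. The sizes could differ, as in miR-23a, where miR-23a-3p had -0.052 against -1.18 for miR-23a-5p.

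The changes moved with the base composition of the mature miRNA. Over the 329 miRNAs with a sequence, the log2 change had r of -0.236 and rho of -0.299 with the GC share. The median change was 0.15 in the lowest tertile (GC of 19% to 45.5%, 118 miRNAs), 0.041 in the middle and -0.083 in the highest tertile (GC of 55% to 81%, 109 miRNAs). miRNAs that rose had a median GC of 42.9% and those that fell 59.1%, against 50% for all. The difference of replicate 1 from replicate 2 moved with GC as well, with r of -0.379 at D6 and D8 and -0.308 at D16, as did the change after DXR (r of -0.311). A fit with a GC correction gave 7 upregulated and 6 downregulated miRNAs. In that fit miR-450a-5p was no longer called DE, and miR-146b-3p passed adjustment beside miR-146b-5p. Beyond such refitted values, the part of GC content in the single changes was not tested.

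D8 was also compared with D6 to ask whether the earlier libraries differ among themselves. 3 miRNAs passed the DE thresholds (0.833%), miR-331-5p (-1.27), miR-877-3p (-1.54) and miR-6769b-3p (2.60), named here after their values were seen. 10 had p below 0.05 and 0 passed adjustment in edgeR or in DESeq2, with a smallest adjusted p of 0.992 in edgeR. None of these 10 was among the 40 that differed at D16. Over all tested miRNAs 8.89% rose and 2.22% fell at D16, so with only 10 miRNAs an absent overlap shows nothing about them. miR-146b-5p was higher at D8 than at D6 without passing (0.57, adjusted p = 0.992), and its D16 change was 1.67 against D6 alone and 1.10 against D8 alone. Against D6 alone 13 miRNAs were DE, and against D8 alone 12; these comparisons share the D16 libraries.

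The same comparison after DXR uses 6 other libraries. There 21 miRNAs had p below 0.05 and were higher at D16 (5.83%) and 27 lower (7.5%). Whatever their p after SDS, 44 of these shared the sign of the SDS change and 4 did not. Of the 32 miRNAs that rose after SDS, 27 were positive after DXR, and of the 8 that fell, 6 were negative. Among the DE miRNAs, 7 of the 10 upregulated were positive after DXR (70%) and 4 of the 5 downregulated were negative (80%). Over all 360, the sign was shared by 250 (69.4%). Those past p below 0.05 in both, all with the same sign, were miR-146b-5p (0.60 after DXR), miR-146b-3p (1.87), miR-383-5p (2.03), miR-181a-5p (0.40), miR-503-5p (0.45), miR-424-5p (0.76), miR-27b-3p (0.70) and miR-31-5p (-0.66). Across miRNAs the changes had r of 0.299 and rho of 0.461 over all 360, and 0.613 and 0.63 over those with at least 100 CPM; miRNAs are not independent replicates, and both changes move with GC.

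miR-146b-5p in DDR-Sen measured 1232 and 902 CPM at D6, 1424 and 1379.5 CPM at D8 and 1942 and 1753 CPM at D16. The difference between its SDS and DXR changes was 0.79 (SE 0.35, adjusted p = 0.862). A test of this difference over the 360 miRNAs passed the DE thresholds for 12 (3.33%), with 18 at p below 0.05 and 0 after adjustment in edgeR (smallest adjusted p 0.421). With DESeq2's Wald test 1, miR-337-3p, passed adjustment, and with edgeR on the 12 libraries of both treatments alone 1, miR-155-5p. miR-155-5p led these: it had -0.43 after SDS and -1.55 after DXR, where it measured 2767 and 3248 CPM at D6, 2115 and 2274 CPM at D8 and 948 and 814 CPM at D16.

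**Figure D5:**
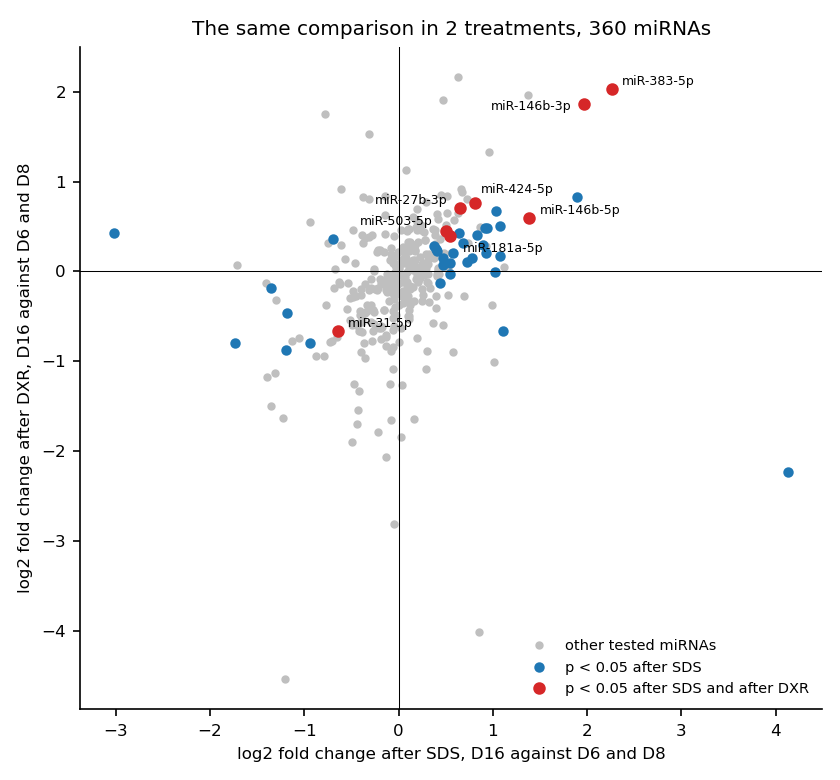
Log2 fold change of D16 against D6 and D8 after SDS (horizontal axis) and after DXR (vertical axis) for 360 miRNAs. Red points passed p below 0.05 in both treatments and lie in the quadrants of equal sign; blue points passed after SDS only, and the gap between treatments passed adjustment for 0 miRNAs in this fit.

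Set beside Ctrl, some late changes carried a miRNA further from its starting level and others brought it back. The D16 and the D6 and D8 comparisons with Ctrl share the Ctrl libraries, and the values are given side by side. miR-27b-3p was above Ctrl by 0.51 at D6 and D8 and by 1.17 at D16, and miR-181a-5p by 0.32 and 0.87. miR-23a-5p was at -0.91 and then -2.09. By contrast, miR-145-5p was at -0.82 at D6 and D8 and -0.28 at D16, miR-143-3p at -0.82 and 0.082, and miR-106b-5p at -1.01 and -0.079. For miR-143-3p the value at D16 is a mean of unlike libraries, replicate 1 above both Ctrl libraries and replicate 2 below both. Without D16 replicate 1 the median late change of the miR-143 cluster was 0.29, against 0.91 with it. miR-503-5p (-0.16 and 0.34) and miR-31-5p (0.31 and -0.34) stayed near Ctrl at both times.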

How the data were processed

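Small RNA libraries of WI-38 cells were made by the authors with a small RNA kit and counted with the exceRpt pipeline (4.6.2) against miRBase on GRCh38. The deposited values are expected counts, 1 per mature miRNA and library, with reads that fit several miRNAs split between them. These were rounded to whole counts. Libraries were assigned by the column names in the labels. edgeR 4.0.16 in R 4.3.3 was used with TMM scaling, filterByExpr over the 18 conditions, all 36 libraries and the quasi-likelihood test, for D16 minus the mean of D6 and D8, D8 minus D6, and the SDS change minus the DXR change. The biological coefficient of variation was 20.9%, with 18 residual degrees of freedom. DE miRNAs passed both an unadjusted p of 0.05 and a log2 change of 1 in size; adjustment was by Benjamini-Hochberg. Log2 CPM used a prior count of 2.

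miRNAs named are up to the 12 DE miRNAs of lowest p in each direction whose groups did not overlap, those passing adjustment, the 6 most abundant, 16 of those the study names, and up to 4 members of lowest p per list; a few others are named beside them. Members and lists were chosen with earlier results of these data known. Sequences and GC came from RefSeq (GRCh38.p14), and gene contexts from GENCODE on GRCh38. The procedure was tested on simulated data. Alternatives were DESeq2 1.42.0, other scalings and filters, adjusted p, fewer libraries, thinning, replicate block, D6 or D8 alone, and leaving out each library; the GC correction and the block within the compared libraries were added after seeing the data. mRNA-seq, qPCR and transfection data were not analysed here.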

Additional observations from a re-analysis of the deposited data

Results flagged for a closer look

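The change from D6 and D8 to D16 was compared between SDS and DXR in one model, and 12 of the 360 miRNAs differed at unadjusted p below 0.05 and above 2-fold. In edgeR with all 36 libraries 0 passed Benjamini-Hochberg adjustment, the smallest adjusted p being 0.421. With DESeq2's Wald test 1 passed (miR-337-3p), and with edgeR on the libraries of the comparison alone 1 (miR-155-5p). Values are the SDS change minus the DXR change on the log2 scale, so a positive value means a higher change after SDS.

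Of those with a mean of more than 50 CPM over the 6 SDS libraries, the difference was 1.12 for miR-155-5p, 1.38 for miR-106b-3p, 1.81 for miR-4286 and 1.77 for miR-199b-5p, and -1.05 for miR-337-3p. miR-337-3p went from 428 and 400.3 CPM at D6 to 236 and 264 CPM at D16 after SDS, and from 344 and 386 CPM to 476 and 456 CPM after DXR. miR-106b-3p went from 108 and 105 CPM to 145.6 and 145.1 CPM after SDS, and from 133 and 166 CPM to 72.5 and 55.5 CPM after DXR. The miR-199b-5p difference holds the D16 replicates of 169 and 55.0 CPM after SDS.

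At lower levels the difference was -1.50 for miR-146a-5p, 1.48 for miR-1271-5p, -2.53 for miR-455-5p, 2.77 for miR-365a-5p and 2.02 for miR-34b-3p. For miR-4454 it was 6.37 and for miR-942-5p 4.87. In both of these a group of libraries is at 0, so that the fitted value depends on the prior count and is no measure of size.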

How the results depend on the processing

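Counts of DE miRNAs are given in the order D16 against D6 and D8 (15), D8 against D6 (3) and SDS change minus DXR change (12). Adjusted p gave 1, 0 and 0, with or without the 2-fold limit. For D16 against D6 and D8, 0 passed adjustment without D16 replicate 1, against D8 alone or with only the 6 libraries, 2 without D6 replicate 1 (with miR-4485-3p) or with the GC correction (with miR-146b-3p), and 3 without a filter (with miR-143-3p and miR-21-5p). Without a filter, 1393 miRNAs were tested and 29, 11 and 34 passed. With a mean of at least 10 counts, 293 were tested, and 9 and 1 passed in the first and second. Leaving out each library in turn gave 2 to 25, 2 to 6 and 6 to 16. The lowest, 2, was without D16 replicate 1 and the highest, 25, without D16 replicate 2. Without D6 replicate 1 it was 23, and without D6 replicate 2 or D8 replicate 2 it was 9. For D8 against D6, leaving out D6 replicate 1 gave 5 and D6 replicate 2 gave 6, and for the third comparison DXR D16 replicate 2 gave 6. The D8 against D6 count was 1 with DESeq2's Wald test and 1 with libraries thinned to the smallest total, which gave 7 for the third comparison, and 5 with the GC correction. The cause was not tested.

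The replicate numbers were used as a replicate block over all libraries, which gave 15, 4 and 10. Within the libraries of a comparison the block gave 13, 6 and 13, and 34, 0 and 1 passed adjustment. The 34 of D16 against D6 and D8, 21 higher and 13 lower, were led by miR-146b-5p, miR-143-3p, miR-146b-3p, miR-31-5p, miR-4485-3p, miR-21-5p and miR-27b-3p, where 0 passed in the same libraries with no block and 1 with the block over all libraries. Differences between replicates 1 and 2 correlated across miRNAs with r of 0.138 (D6 and D8), 0.201 (D6 and D16) and 0.182 (D8 and D16). Within each replicate number D16 was above both D6 and D8 for 31 of the 32 miRNAs that rose (77 of all 360), some of which overlap when the 6 libraries are pooled, and below both for 8 of the 8 that fell (51 of 360). The miRNAs that rose or fell were picked for their D16 difference in the same libraries, which largely sets such counts beforehand. Comparisons across the replicate numbers were not made. With 2 numbers and no label on what they mark, whether they mark pairs was not tested.

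Of 597 values of single named miRNAs, 518 kept their direction and side of the threshold, 44 lost and 8 gained the call, and 27 changed sign, all in miRNAs that were not DE. Most of the 32 named miRNAs were not DE, and only DE miRNAs can lose a call. The 44 losses therefore all fall on the DE ones, which are less stable than the total shows. DE miRNAs whose groups overlapped, such as miR-29c-3p and miR-199b-5p, are not among the 32. miR-146b-5p ranged from 0.73 to 1.82 and had p below 0.05 in all 19 alternatives, with the 2-fold limit missed in 1. The sign changes were as follows. With DESeq2 size factors miR-10a-5p had -0.0061 and miR-625-3p -0.058, and with DESeq2's Wald test -0.0061 and -0.049. With total counts miR-125b-5p had -0.066, miR-10a-5p -0.072, miR-1260b -0.052 and miR-625-3p -0.13. miR-625-3p had -0.0010 with a mean of at least 10 counts, -0.034 with only the libraries of the comparison and -0.043 with the block there. Against D6 alone miR-125b-5p had -0.014. Against D8 alone miR-10a-5p had -0.11, miR-1260b -0.13 and miR-625-3p -0.077. With the GC correction let-7a-5p had -1.82e-05, miR-10a-5p -0.032 and miR-625-3p -0.064. Leaving out 1 library gave -0.0080 to 0.097 for miR-125b-5p, -0.035 to 0.12 for miR-10a-5p, -0.21 to 0.19 for miR-625-3p, -0.34 to 0.0062 for miR-222-3p, -0.60 to 0.053 for miR-486-5p and -0.13 to 0.26 for miR-1260b.

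The depth of 325894 to 1933442 counts leaves miRNAs of a few counts, such as miR-4454 and miR-1246, without a usable fold.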

Other observations

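Some miRNAs outside the naming rule, chosen here after their values were seen, had groups that did not overlap without passing p below 0.05. miR-92a-3p, a member of the miR-17-92 cluster, measured 12096 and 13617 CPM at D6, 12095 and 11764 CPM at D8 and 9846 and 8929 CPM at D16 (log2 fold change -0.40, adjusted p = 0.464). miR-345-5p was at 295 and 246 CPM at D6, 232 and 304 CPM at D8 and 463 and 323 CPM at D16 (0.56, adjusted p = 0.476). In the paralogous pair miR-23a and miR-23b, whose 5p arms share the seed GGGUUCC, miR-23a-5p fell while miR-23b-5p had a change of 0.70 without passing, and the difference between them was not tested.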
